A study of Rattus norvegicus with 24 samples.

Results

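The transcripts described here were the ones that differed most among the young rats in liver, in RNA-seq and in ribosome profiling alike. Levels are in CPM, the count of a transcript times 1000000 over the sum of counts of its library. A member had a mean of at least 2 CPM in both assays of young liver, a highest over lowest value of the 3 young animals of at least 3 in both (0.1 CPM added to each), and the same animal highest and the same animal lowest in both. Of 22938 transcripts, 9356 met the rule on the mean and 69 met all of it, which is 0.737% of the 9356. Another 20 had both ratios at 3 or more but another order of the animals. The members were thus chosen by their young liver values in both assays, and those values are given as a description and carry no test.

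Liver and brain were taken from 3 young rats of 6 months and 3 old rats of 24 months, and every animal gave an RNA-seq and a ribosome profiling library of both organs, 24 libraries in all. The labels name no strain, sex, treatment or genotype, so none is given here, and the groups differ by age, organ and assay alone as far as the labels say. The deposited files list transcripts by identifier, and 0 of these identifiers could be paired with a gene symbol, so the members are named by identifier, their functions are not stated, no sequence could be assigned to them, and the organ labels could not be checked against marker genes. Animals are called young 1 to 3 and old 1 to 3, and 1 number stands for 1 animal of its age in both organs and both assays.

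Liver makes most plasma proteins and handles nutrients, bile acids and foreign compounds, and hepatocytes hold most of its RNA. RNA-seq counts reads from the RNA of a transcript, whereas ribosome profiling counts the short pieces (footprints) that a ribosome protects from nuclease, so that footprints reflect both the amount of an RNA and how densely ribosomes occupy it. In bulk tissue, fewer cells that contain an RNA and less of that RNA per cell cannot be told apart.

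Liver libraries held 17932008 to 28664906 counts in RNA-seq and 10702456 to 17584871 in ribosome profiling. The members were not rare. Their mean level in young liver RNA-seq ran from 2.18 to 2967 CPM with a median of 15.7, against a median of 19.9 CPM over the 9356, and in ribosome profiling from 2.403 to 1988 CPM with a median of 13.5, against 14.6. In its highest young library every member had at least 75 RNA-seq counts and at least 60 footprint counts. The length-like value in the files had a median of 476 in the members and 436 over the 9356, and 0 members had counts identical to those of another transcript in every library. Some members were still much alike. ENSRNOT00000064884 and ENSRNOT00000029049 each had a length-like value of 304 and footprint counts of 1, 0 and 7 in the young brains. Whether such members share reads was not tested, so counts of members need not be counts of separate genes.

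All 69 members had young 1 at one end of the range: 38 were highest in it and 31 were lowest in it. Young 2 was the lowest animal of 16 of the 38 and young 3 of 22, and young 2 was the highest animal of 15 of the 31 and young 3 of 16. The same tilt was present over all transcripts, since young 1 was an extreme in 91.2% of the 2850 expressed transcripts with the same order in both assays, young 2 in 47.6% and young 3 in 61.2%. The median difference between young 1 and young 2 was 4.84-fold in member RNA and 4.90-fold in member footprints, and between young 1 and young 3 it was 5.10-fold and 5.70-fold. Young 2 and young 3 lay closer together, with medians of 1.55-fold and 1.60-fold, and 48 of the 69 differed by under 2-fold between them in RNA. Over all 9356 transcripts the 3 pairs had medians of 1.19-fold, 1.20-fold and 1.08-fold in RNA. Young 1 also stood slightly apart as a library. Its log2 CPM correlated with young 2 and young 3 at 0.969 and 0.966 in RNA-seq, while young 2 and young 3 correlated at 0.992 (Pearson's r across the 9356 transcripts, which are not independent). Without young 1, the rule found 6 transcripts, 5 of them among the 69, so the set described here rests on that animal.

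**Figure D1:**
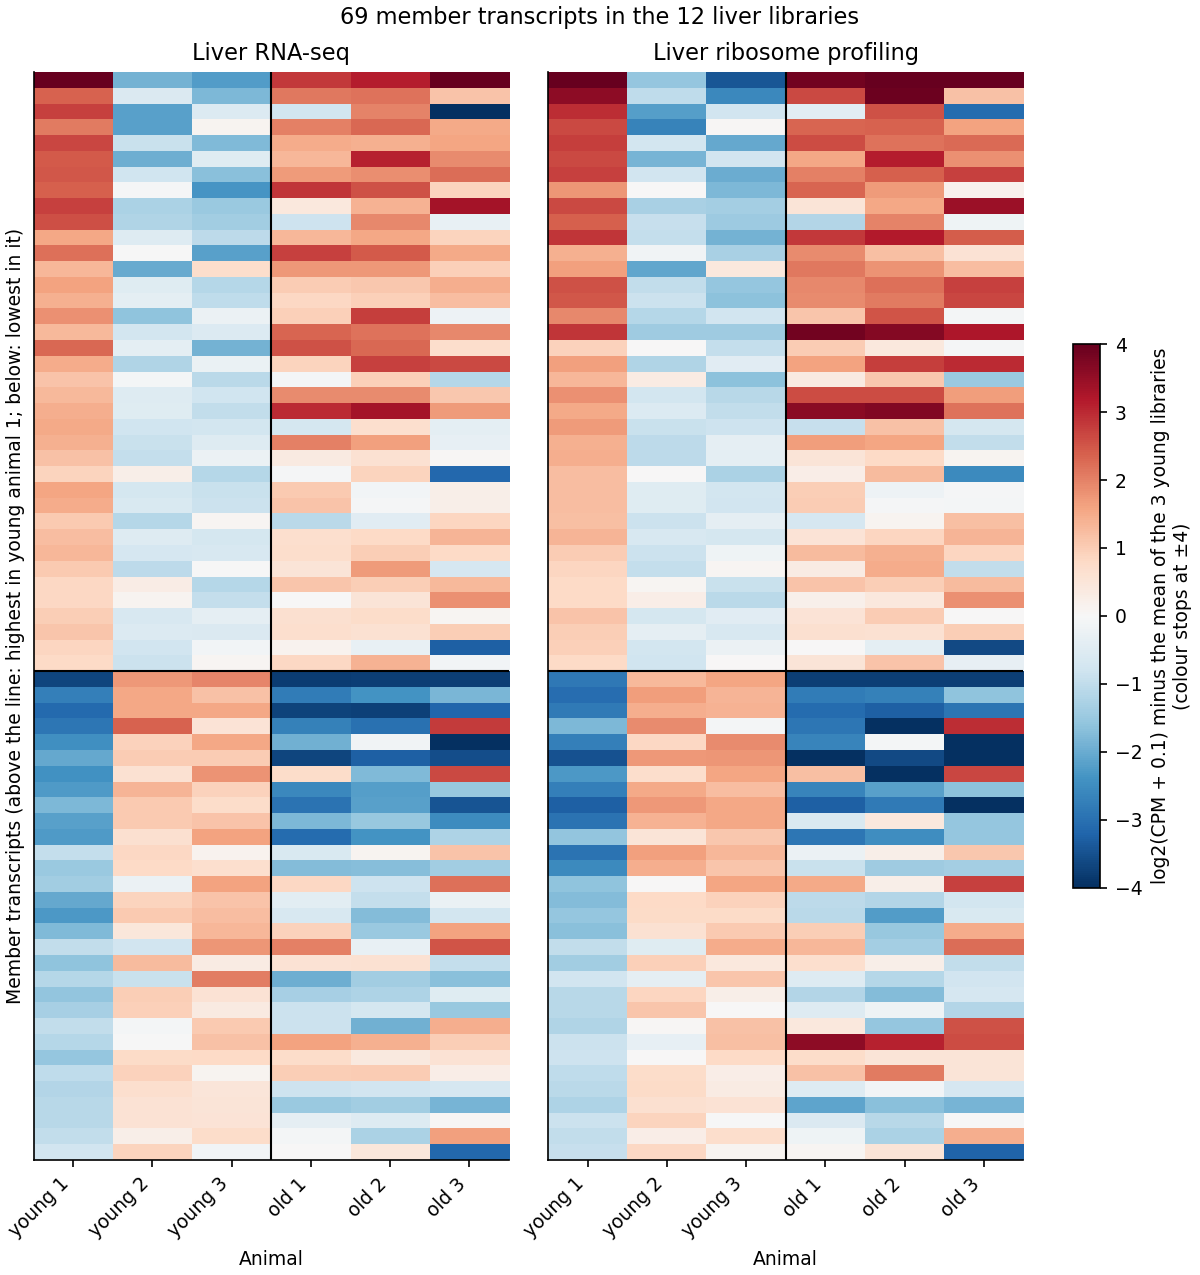
Each row is 1 of the 69 members and each column 1 liver library, with RNA-seq on the left and ribosome profiling on the right. Colour gives log2(CPM + 0.1) minus the mean of the 3 young libraries of that assay. The 38 members above the line are highest in young 1 and the 31 below it are lowest in young 1, and many old libraries show the colour of young 1.

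The members with the largest spread, at a mean of at least 10 CPM in both assays, are given by library, first those highest in young 1. ENSRNOT00000013088 stood at 31.6, 0.38 and 0.279 CPM in RNA-seq of young 1, 2 and 3 and at 32.9, 0.264 and 0 CPM in ribosome profiling. Behind these lie 668, 7 and 5 RNA-seq counts and 389, 4 and 0 footprint counts. It was thus near the floor of detection in the other 2 young livers, while old livers held 12.8, 15.7 and 59.9 CPM in RNA-seq and 15.2, 17.2 and 66.1 CPM in ribosome profiling, all above young 2 and young 3. In brain the same transcript was abundant and even, at 199 to 216 CPM in the 3 young and 201 to 213 CPM in the 3 old RNA-seq libraries.

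ENSRNOT00000010639 had 48.6, 1.52 and 4.91 CPM in young liver RNA-seq and 32.1, 0.791 and 2.33 CPM in ribosome profiling. It was as uneven in old livers, with 4.19, 29.0 and 0.116 CPM in RNA-seq and 2.99, 23.9 and 0.391 CPM in ribosome profiling. Old 2 was the highest and old 3 the lowest in both assays, so neither age had a level of its own.

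Members lowest in young 1 included a very abundant transcript. ENSRNOT00000034784 stood at 93.7, 2390 and 2369 CPM in young liver RNA-seq and at 152, 2954 and 2858 CPM in ribosome profiling. Young 2 and young 3 were nearly equal, and all 3 old livers lay at or below young 1, with 62.3, 61.0 and 89.9 CPM in RNA-seq and 130, 113 and 145 CPM in ribosome profiling. In brain it had 0 counts in every young library, and 0, 53 and 0 counts in old RNA-seq.

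ENSRNOT00000015724 behaved alike, with 66.5, 551 and 554 CPM in young liver RNA-seq against 21.2, 28.4 and 23.1 CPM in old liver. Its footprints stood at 19.1, 722 and 731 CPM in young and at 11.8, 17.7 and 12.5 CPM in old liver. ENSRNOT00000043736 had 1.51, 31.1 and 23.8 CPM in young and 1.43, 1.93 and 2.90 CPM in old liver RNA-seq, and its footprints stood at 2.11, 58.0 and 46.1 CPM and at 2.52, 2.69 and 5.86 CPM. For these transcripts the old animals and young 1 formed the low side and young 2 and young 3 the high side.

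ENSRNOT00000009975 was different, with 1.32, 11.5 and 26.0 CPM in young and 12.5, 2.12 and 46.9 CPM in old liver RNA-seq. Its footprints followed, at 1.60, 13.6 and 25.2 CPM and at 19.2, 0.395 and 52.8 CPM. Here each age held an animal with little of the transcript, young 1 and old 2.

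**Figure D2:**
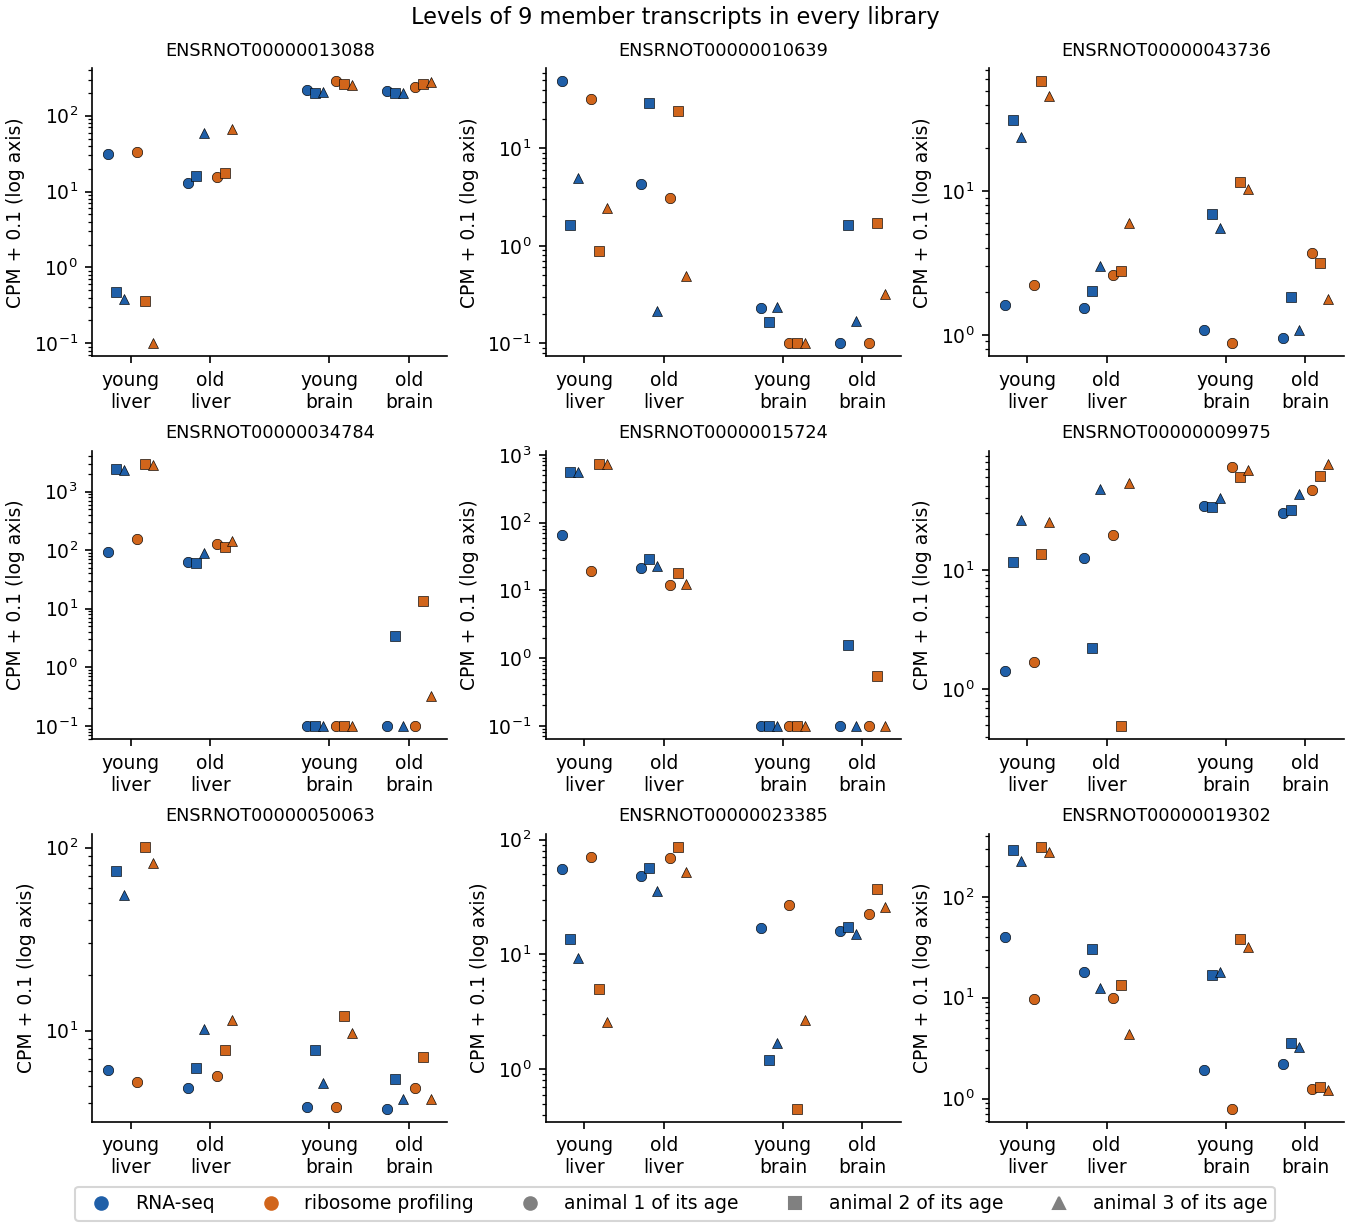
Each panel shows 1 member, with CPM + 0.1 on a log axis and a point for each library. Colour gives the assay and the marker shape the animal number within its age. ENSRNOT00000034784 and ENSRNOT00000015724 are high in young 2 and young 3 liver, while ENSRNOT00000013088 is low in the same 2 livers and even in brain.

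Near the threshold, the members with the smallest value of the lower of their 2 ratios were ENSRNOT00000051086, with ratios of 3.15 in RNA-seq and 3.01 in ribosome profiling, and ENSRNOT00000013087, with 3.26 and 3.08. Just outside were ENSRNOT00000018090, with 3.05 and 2.93, and ENSRNOT00000001285, with 3.24 and 2.92. All 4 were highest in young 1, and the lower ratio of each lay just above or just below 3.

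In old liver, whose values the rule did not use, the members again varied more among animals than most transcripts did. The median highest over lowest value of the 69 was 2.22 in RNA-seq and 2.48 in ribosome profiling, against 1.34 and 1.39 over the 9356. A ratio of at least 3 was found for 28 of the 69 in RNA-seq, where 2.18% of all had one, and for 29 in ribosome profiling, where 3.17% did. The same old animal was highest and the same lowest in both assays for 57 of the 69, against 44.8% of all. Both conditions together were met by 23 of the 69, against 1.43% of all. Without old 3 these were 7, against 0.15%, without old 2 they were 14, against 0.77%, and without old 1 they were 19, against 1.26%. Without old 3 the median ratio of the members was 1.28 in RNA-seq and 1.40 in ribosome profiling, against 1.13 and 1.18 over all. By the whole rule, mean level included, old liver gave 177 transcripts. Of these 22 were members, which is 31.9% of the members and 12.4% of the old list.

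**Figure D3:**
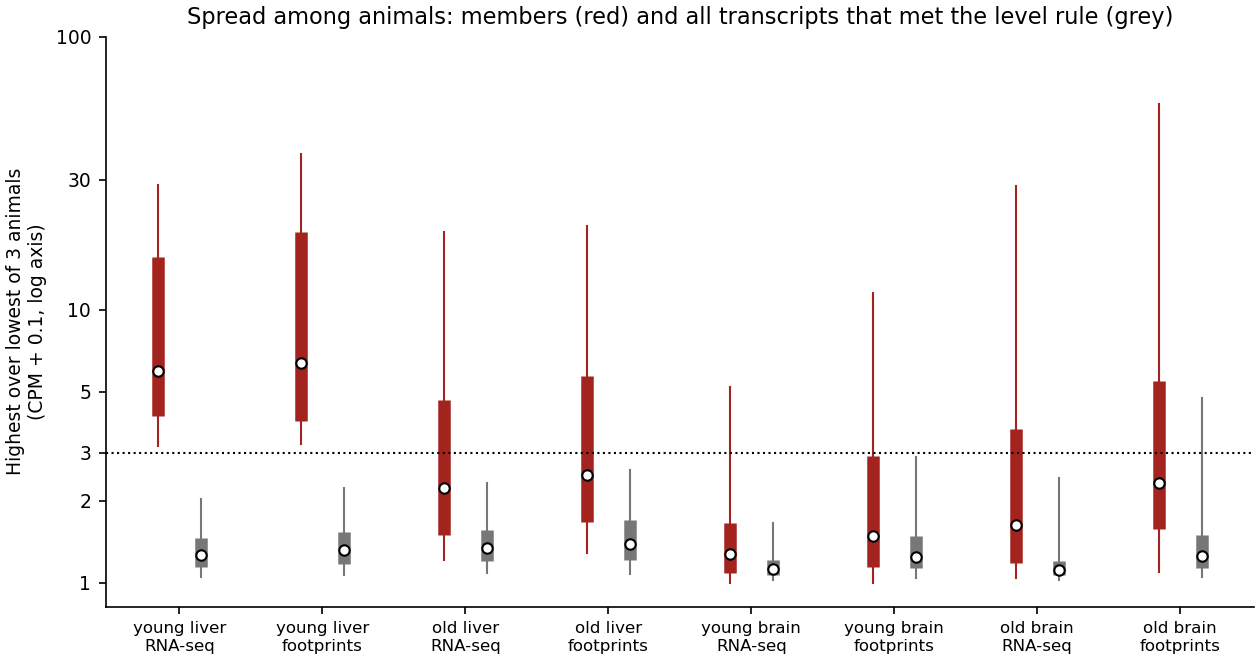
Highest over lowest CPM + 0.1 of the 3 animals (log axis) in each organ, age and assay, for the 69 members in red and the 9356 expressed transcripts in grey. Points mark medians, thick bars the 25th to 75th percentile and thin lines the 5th to 95th percentile, and the dotted line is the ratio of 3 used to choose members in young liver. The members' medians lie above the grey ones in old liver too, with values of 2.22 and 2.48 against 1.34 and 1.39.

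Differences among the old animals were tested with RNA-seq and ribosome profiling of 1 animal as repeated measures (edgeR quasi-likelihood test of the animal term with assay as covariate, Benjamini-Hochberg adjusted p under 0.05). The test asks whether the 2 libraries of an animal deviate together. It does not separate the animal from the piece of tissue or its handling, which both libraries may share. Of the 69 members 67 passed the count filter and 51 of these were called, where 25.1% of all 12209 tested transcripts were called. DESeq2 called 46, where it called 17.8% of all, and limma-voom 50, where it called 25.6%. Without old 3 the count was 28 of 67, where 7.39% of all were called.

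The members with the smallest p were ENSRNOT00000016036 and ENSRNOT00000014180. ENSRNOT00000016036 had 2709, 3616 and 303 CPM in old liver RNA-seq and 1831, 2478 and 190 CPM in ribosome profiling (adjusted p = 2.2e-13 by edgeR), so old 3 stood far below the other 2 animals. In young liver it had 1555, 4891 and 2456 CPM in RNA-seq. ENSRNOT00000014180 was likewise low in old 3, with 78.7, 58.0 and 7.24 CPM in RNA-seq and 98.2, 74.3 and 7.94 CPM in ribosome profiling (adjusted p = 7.5e-11 by edgeR).

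The animal at the extreme in old liver was not always the same. Among the 57 members with 1 order in both old assays, old 3 was highest or lowest in 51, old 2 in 36 and old 1 in 27. Old 3 also lay apart over all expressed transcripts. Their median RNA difference was 1.22-fold between old 1 and old 3, 1.27-fold between old 2 and old 3 and 1.13-fold between old 1 and old 2. For footprints these medians were 1.22-fold, 1.28-fold and 1.18-fold. How often each old animal was an extreme over all transcripts was not counted, so the members' counts do not set them apart. Among the 23 with large spread, 7 of those lowest in young 1 had old 3 highest and old 2 lowest, ENSRNOT00000009975 among them. Of those highest in young 1, 5 had old 2 highest and old 3 lowest, ENSRNOT00000010639 among them. Others of these, such as ENSRNOT00000013088 and ENSRNOT00000015189, had old 3 highest and old 1 lowest. Such patterns were not counted over all transcripts either, so these counts do not set members highest and lowest in young 1 apart.

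The rule made the young range of the members wide, so that counts of old livers inside or beyond it are fixed in part by the choice of members and are given as a description. In RNA-seq all 3 old livers lay above all 3 young livers for 3 of the 69 and below them for 6, against 6.36% and 19.0% of the 9356. In ribosome profiling the counts were 4 and 4, against 12.5% and 6.28%. The old livers all lay inside the young range for 21 members in RNA-seq and 19 in ribosome profiling, against 9.63% and 12.2% of all.

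Some members were even among the old livers. Both ratios were under 1.5 for 10 of the 69, against 52.4% of the 9356. In 8 of the 10 every old liver lay nearer to young 1 than to young 2 or young 3. Old livers that are even tend to share the nearest young animal. How often this was young 1 over all transcripts with even old livers was not counted, so the 8 are given as a description. Over all members, the 3 old livers were nearest to young 1 in both assays (on the log2 scale) for 27 of the 69, where 5.5% of all transcripts had that pattern, and farthest from young 1 for 3 of the 69, where 2.96% did. Of the 27, 16 were highest and 11 lowest in young 1. The rule required a wide young range and named no animal, but young 1 was at 1 end of that range in all 69. It was not always apart from both others. In RNA 6 members differed by under 2-fold between young 1 and young 2, and 5 between young 1 and young 3. The rule did not use old values, but it fixed the wide young range, and the shares are not a test. By counts a well-covered member of this kind was ENSRNOT00000034784, with 1981, 43970 and 42484 counts in young and 1786, 1551 and 2322 in old liver RNA-seq. ENSRNOT00000018435, picked after its values were seen, had the pattern at the floor of detection. It had 1, 114 and 128 counts in young and 1, 1 and 1 counts in old liver RNA-seq, and 1, 49 and 69 against 0, 0 and 0 footprint counts.

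Age was compared within liver with edgeR (adjusted p under 0.05). Of the members 68 were tested in each assay, and 0 were called in RNA-seq, where 0.0164% of 12198 transcripts were called, and 0 in ribosome profiling, where 0.0176% of 11396 were called. At an unadjusted p under 0.05 there were 13 members in each assay, against 23.1% of all RNA-seq tests and 12.2% of all footprint tests. DESeq2 called 9 members in RNA-seq, all lower in old liver, where it called 8.88% of all, and 6 in ribosome profiling, 1 higher and 5 lower, where it called 1.94%. The young livers whose spread chose the members are 1 side of this comparison. The result turned on young 1. Without it, edgeR called 27 of the 69 in RNA-seq, 13 higher and 14 lower in old liver, where 5.14% of all were called, and 21 in ribosome profiling, 10 higher and 11 lower, where 0.814% of all were called. The rule required a wide young range, and young 1 was at 1 end of it in all 69 members. Leaving young 1 out thus narrows the young group by the choice of members, and these calls are not support for a difference between the ages.

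ENSRNOT00000034784 had a log2 fold change of old over young liver of -4.37 in RNA-seq (SE 1.07, adjusted p = 0.091 by edgeR) and -4.05 in ribosome profiling (SE 1.17, adjusted p = 0.31). Without young 1 the values were -4.92 and -4.60. ENSRNOT00000015724 had -3.85 (SE 0.756, adjusted p = 0.073 by edgeR) in RNA-seq, and -4.33 without young 1. Its footprints changed by -5.22, and by -5.79 without young 1. The old livers thus lay below the young mean with or without that animal. Over all animals neither transcript passed the edgeR or limma-voom test in either assay, while both passed by DESeq2 in both assays (adjusted p under 0.05).

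Brain levels divided the members. In young brain 38 of the 69 had a mean of at least 2 CPM in both assays, and 31 did not. Of the 9356 transcripts, 8597 had such a mean. In the old animals, the members were higher in liver than in brain by a median of 2.27 in RNA-seq on the log2 scale, while the median over the 9356 was -0.95. At least 4-fold more RNA in liver was found for 35 of the 69, against 10.6% of all, and at least 4-fold more in brain for 7, against 17.4%. Without old 2, whose brain libraries held liver-typical transcripts, as described further on, the median was 2.09 and the counts were 36 and 9, against 11.1% and 16.7% of all. Footprints gave 33 and 9 members with all animals, against 10.6% and 20.6%.

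Among young brains the 38 members expressed there had a median ratio of 1.21 in RNA-seq and 1.41 in ribosome profiling, against 1.11 and 1.23 over the 8597 transcripts expressed in both organs. The other 31 were under 2 CPM there in at least 1 assay, some with 0 counts in every young brain library, where the ratio is 1 by construction. Of the 38 members expressed in brain, 3 had a ratio of at least 3 in RNA-seq, where 0.0698% of all did, and 5 in ribosome profiling, where 1.37% did. The same young brain was highest and the same lowest in both assays for 12 of the 38, against 20.4%. Of the 38, 2 had a ratio of at least 3 and 1 order in both assays, where 0.0582% of all did. By the animal term in young brain, 6 members were called of 47 tested, where 1.1% of 14032 transcripts were called. Without young 1 the count was 1 of 47, where 0.329% of all were called. DESeq2 and limma-voom also called 6, where they called 0.877% and 1.53% of all.

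Young 1 lay beyond both other young brains, on the side it had in liver, in both assays for 9 of the 38, and on the other side for 8. Over the 4004 transcripts expressed in both organs with young 1 at 1 end in liver, these shares were 20.3% and 12.7%. The members' counts on the same and the other side were thus nearly equal, while over all transcripts the same side was the more frequent. With a ratio of at least 2 in both brain assays as well, 4 of the 38 remained, where 0.250% of the 4004 did. These were ENSRNOT00000043736, ENSRNOT00000050063, ENSRNOT00000023385 and ENSRNOT00000019302, singled out after their values were seen. All 3 old brains were nearest to young 1 in both assays for 4 of the 38, against 4.34% of all, and farthest from it for 0, against 2.28%. The 4 with the same side and the 4 nearest share 2 transcripts.

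ENSRNOT00000023385 had 55.5, 13.4 and 9.20 CPM in young liver RNA-seq and 16.8, 1.10 and 1.60 CPM in young brain RNA-seq, with brain footprints at 26.7, 0.354 and 2.61 CPM (adjusted p = 2.0e-07 for the animal term by edgeR). Old brains held 15.8, 17.1 and 14.9 CPM and old livers 47.7, 56.3 and 35.7 CPM of its RNA. Young 1 and the 3 old animals were thus alike in both organs, and young 2 and young 3 were low in both.

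ENSRNOT00000019302 showed the reverse sign. It had 40.0, 288 and 227 CPM in young liver RNA-seq and 1.83, 16.6 and 17.8 CPM in young brain RNA-seq, with brain footprints at 0.696, 37.9 and 31.4 CPM (adjusted p = 6.8e-05 by edgeR). Old livers held 17.8, 30.2 and 12.4 CPM and old brains 2.11, 3.46 and 3.15 CPM. ENSRNOT00000043736 stood at 0.981, 6.80 and 5.46 CPM in young brain RNA-seq (adjusted p = 0.00033 by edgeR) and at 0.855, 1.73 and 0.98 CPM in old brain. ENSRNOT00000050063 had 3.73, 7.77 and 5.06 CPM in young brain RNA-seq and did not pass the test (adjusted p = 0.15 by edgeR).

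A called member went the other way in the 2 organs. ENSRNOT00000009546 had 6.39, 20.8 and 19.96 CPM in young liver RNA-seq, lowest in young 1, and 40.0, 15.1 and 14.9 CPM in young brain RNA-seq, highest in young 1 (adjusted p = 1.6e-05 for the brain animal term by edgeR). Footprints gave the same picture, with 6.59, 24.5 and 23.4 CPM in liver and 41.6, 17.3 and 15.3 CPM in brain. Old livers lay at 4.85, 5.19 and 3.76 CPM and old brains at 34.5, 27.8 and 53.2 CPM in RNA-seq, on the side of young 1 in both organs.

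Calls in old brain depended on old 2. In old brain 42 of the 69 members had at least 2 CPM in both assays, as did 8887 of the 9356 transcripts. Of the 42, 4 had a ratio of at least 3 in RNA-seq, where 2.72% of the 8887 did, and 4 in ribosome profiling, where 3.74% did. Both assays and 1 order were met by 1 of the 42, against 1%, and 1 order alone by 12, against 22.0%. Of 54 members tested there, 14 were called by the animal term, where 2.29% of 14387 transcripts were called. Without old 2 the count was 2 of 49, where 0.503% were called, and without old 1 it was 29 of 62, where 5.7% were. Without the count filter it was 22 of 68, where 2.92% were. A list of 50 other transcripts, abundant in young liver RNA-seq and at least 50 times lower in young brain, had a median of 7.13 in brain RNA-seq of old 2, as log2(CPM + 0.1), against -1.09 and 0.94 in old 1 and old 3 and -2.10 to -1.47 in the young brains. In ribosome profiling it was 7.85 in old 2 and 3.43 and 2.87 in old 1 and old 3, against -1.50 to -0.27 in the young brains, so that old 1 and old 3 also lay above the young brains there. The 31 members that were low in brain moved with it, at a median of 0.72 in old 2 against -0.71 and -1.15 in old 1 and old 3, and 22 of the 31 were highest in old 2 in each assay. How often other transcripts low in brain were highest in old 2 was not counted, so the 22 do not set the members apart. Why old 2 stood apart was not tested. ENSRNOT00000051244, with 2082, 905 and 1119 CPM in old liver RNA-seq, had 0.228, 37.5 and 0.42 CPM in old brain RNA-seq (adjusted p = 4.4e-11 by edgeR). ENSRNOT00000016036 had 121, 247 and 114 CPM there (adjusted p = 2.4e-08 by edgeR, and 1.0 without old 2). Both were highest in old 2.

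Footprints followed RNA closely in the members. In old liver, where the rule used nothing, deviations of the 3 animals from their mean correlated between the assays at 0.955 over the 69 members, with a slope of 1.02 of footprints on RNA on the log2 scale, against 0.745 and 0.838 over the 9356. In young liver the values were 0.946 and 1.02 against 0.581 and 0.636. There the rule itself required 1 order in both assays. These correlations are across transcripts that share the same 6 libraries, and the members had the wider range. The SD of log2 RNA of the old animals was 1.115 in the members and 0.35 over all, and that of footprints 1.20 and 0.394.

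**Figure D4:**
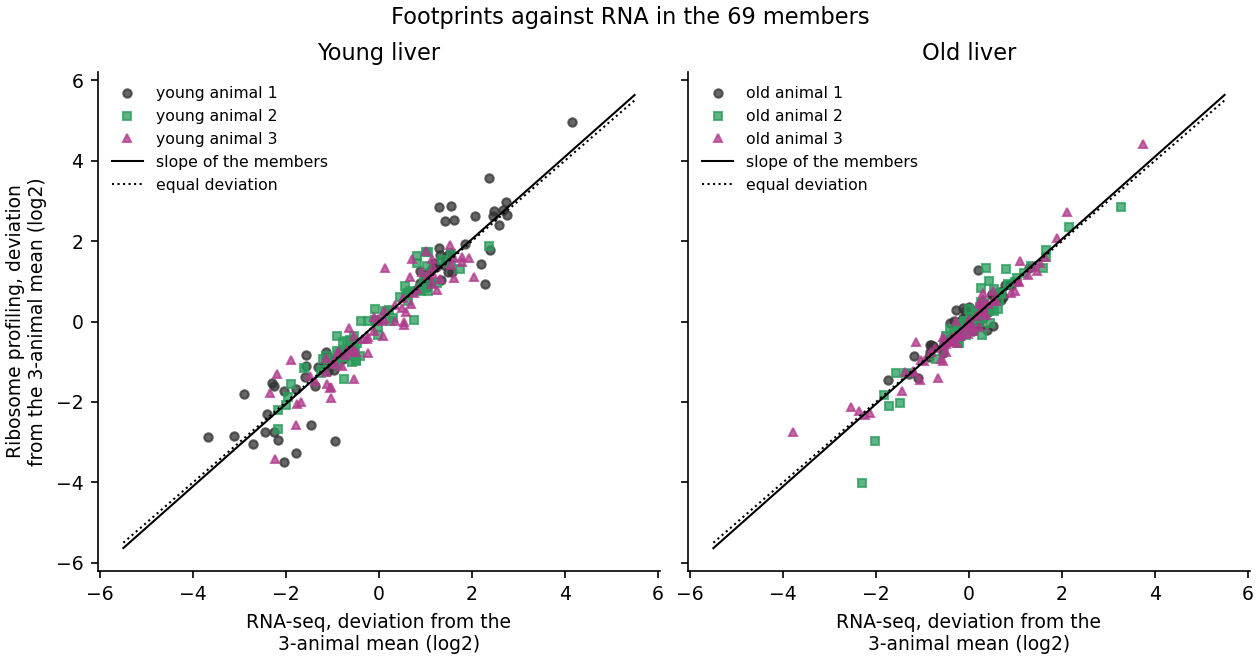
Each point is 1 member in 1 liver, with the deviation of its RNA-seq level from the 3-animal mean on the x axis and that of its footprints on the y axis, both as log2. Young animals are on the left and old animals on the right, the solid line has the slope of the members (1.02 in both) and the dotted line marks equal deviations. Points of young 1 reach farthest from 0 on the left.

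In young liver the ratio of footprint to RNA level (CPM + 0.1) differed between animals more often in members than in other transcripts. In old liver the gap was smaller. The highest over lowest value of this ratio among the 3 animals had a median of 1.48 in young and 1.30 in old liver, against 1.325 and 1.27 over the 9356. In young liver it was under 1.5 for 36 of the 69, against 71.2% of all, and at least 3 for 12, against 0.994%. In old liver it was under 1.5 for 49, against 77.6%, and at least 3 for 4, against 0.566%. The young values are those of the assays that chose the members. Some of the large ranges rest on few counts and depend on the added 0.1 CPM. Of the 4 in old liver, ENSRNOT00000009975 had 5 footprint counts in old 2 and ENSRNOT00000010639 3 RNA-seq and 6 footprint counts in old 3. ENSRNOT00000065538 had 1 RNA-seq and 0 footprint counts in old 2, and ENSRNOT00000042576 had 19 footprint counts in old 3. In young liver ENSRNOT00000013088 had 0 footprint counts in young 3. Other young liver ranges do not rest on few counts, such as that of ENSRNOT00000015724, whose lowest young liver library held 226 footprint counts. Footprint spread exceeded RNA spread in 38 of 69 members in young liver and in 41 in old liver, with a median quotient of 1.04 and 1.07, so neither assay had the larger spread throughout. Over the 9356 the median spread was also slightly larger in footprints than in RNA, at 1.31 against 1.26 in young liver and 1.39 against 1.34 in old liver.

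Among the members in which the ratio did change, ENSRNOT00000015724 had 0.288, 1.31 and 1.32 for this ratio in young 1, 2 and 3 and 0.558, 0.625 and 0.543 in old livers. Young 1 and the old livers, low in its RNA, were also low in footprints per RNA. ENSRNOT00000019302 had 0.243, 1.09 and 1.22 in young liver and 0.555, 0.439 and 0.346 in old liver. Its brain values ran the same way, at 0.412, 2.27 and 1.75 in young and 0.562, 0.370 and 0.374 in old animals. The low brain values rest on few footprint counts, 9 in young 1 and 6, 19 and 10 in old 1, 2 and 3. ENSRNOT00000023385 was low in young 2 and young 3, and its ratio was 1.28, 0.368 and 0.280 in young and 1.45, 1.54 and 1.47 in old liver. In the first and second of these young 1 was the lowest young liver in RNA and in the ratio, and in the last it was the highest in both. Other members went the other way, such as ENSRNOT00000002054, with 5.77, 0.815 and 0.223 CPM of RNA and ratios of 4.10, 14.0 and 20.2 in young 1, 2 and 3, of which the last rests on 4 RNA-seq counts. A change of footprints per RNA between single animals has no replicate and was not tested. These members were picked after their values were seen.

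Between the ages, footprints relative to RNA were tested in the 12 liver libraries by an age-by-assay interaction term. All 69 members were tested, and 0 were called by edgeR, where 0% of 12462 transcripts were called, with 0 members at an unadjusted p under 0.05, where 10.1% of all were. This fit held no animal term, so the spread among young animals that chose the members stayed in its residual and raised their p. The 0 against 10.1% was thus fixed in part by the choice of members and says nothing about how steady their footprints per RNA were. DESeq2 gave an adjusted p for 54 members and called 0 of them, where it called 0.995% of all, and limma-voom called 0. With the animal as a block, which removes differences that both assays of an animal share, 4 of the 69 were called, where 6.75% of all were called. Of these 1 was higher in old liver and 3 were lower. They included ENSRNOT00000019501, higher by 1.54 in old liver on the log2 scale, and the 2 with the largest fall, ENSRNOT00000051086 and ENSRNOT00000015281, with old minus young values of -0.49 and -0.47 (adjusted p = 0.0012, 0.025 and 0.040 by edgeR). The share of members called by the blocked fit was close to that of all transcripts. At an unadjusted p under 0.05 the blocked fit had 18 of the 69 members, where 23.1% of all were.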

How the data were processed

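Counts were deposited by the authors as whole numbers per transcript, not normalised, 1 file per library with 22938 transcripts, of which 4960 had 0 counts throughout. A second column, also deposited, holds an undefined value that resembles a length. Per the submitters' processing notes, Bowtie 1.0.0.0, TopHat2 2.0.10, DESeq and rat build rn4 were used; the step of each, the annotation and the counting rule are, in the sources used here, not given, so transcripts of 1 gene may share reads. Per the labels' protocols, RNA-seq used a stranded kit and ribosome profiling RNase I footprints of pelleted ribosomes. Duplicate PCR reads cannot be told apart. Gene lists and markers could not be run without symbols.

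From the counts, CPM with the library sum was computed for levels and ratios. Tests used edgeR 4.0.16 in R 4.3.3 on the whole table (TMM factors, robust fit, minimum count 10 and total 15), and DESeq2 1.42.0 and limma 3.58.1 as alternatives; the code was tested on simulated data. Standard errors were derived from the F statistic. Identical sample title codes mark 1 animal in both assays, and deviations of its libraries correlated at 0.581 in young and 0.745 in old liver over 9356 transcripts. The labels do not say whether both assays used 1 piece of tissue.

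Members, lists and tests were chosen with earlier results of these data known. Named are the 2 members with the largest geometric mean spread per highest animal at 10 CPM or more, the 2 with the smallest p of each animal term, those nearest the threshold, up to 2 called members per direction of each age or interaction test (0 in the main tests), and those said to be picked afterwards.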

Additional observations from a re-analysis of the deposited data

How the results depend on the processing

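The number of members was 69. It stayed within 1.5 times under pseudocounts of 0.5 and 1 CPM, a mean of at least 5 CPM, TMM factors, library sums without the 10 most abundant transcripts and a removed length trend. Leaving out 1 young animal gave 6 to 74 transcripts, the lowest without young 1. When 1 old animal was left out, the median ratio in old liver ranged from 1.28 to 1.93 for RNA and 1.40 to 2.08 for footprints, and members meeting spread and order from 7 to 19, each lowest without old 3; a ratio over 2 animals is lower by construction. Members called by the animal term ranged from 28 to 46 in old liver, where 7.39% to 21.9% of all were called, 1 to 7 in young brain, where 0.329% to 1.55% were, and 2 to 29 in old brain, where 0.503% to 5.7% were, when 1 animal was left out. Without the count filter the last was 22, where 2.92% were. Age calls among members were 9 in RNA-seq and 6 in ribosome profiling with DESeq2, and ranged from 0 to 27 and 0 to 21 when 1 animal was left out, the highest without young 1. With the replicate number as a block, which pairs different animals, age called 0 members in both assays. With the animal as a block, the interaction called 4 members, and the block changed no other call among members. For single named transcripts, 128 of 148 alternative values kept their side of the threshold, 9 lost it, 11 gained it and 0 reversed. Depth limits the largest ratios, whose lowest library held 0 to 5 counts for ENSRNOT00000013088, so their size depends on the added 0.1 CPM.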
